A study of Mus musculus with 10 samples.

Results

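The peroxiredoxin and thioredoxin system of the mouse heart was measured at the level of mRNA. Its 10 genes were taken by symbol from a table of 24537 genes: the peroxiredoxins Prdx1 to Prdx6, the thioredoxins Txn1 and Txn2, and the thioredoxin reductases Txnrd1 and Txnrd2. All 10 passed the filter on low counts. The products of Prdx3, Prdx5, Txn2 and Txnrd2 are the 4 mitochondrial members, those of Prdx1, Prdx2, Prdx6, Txn1 and Txnrd1 the 5 cytosolic ones, and PRDX4 lies in the endoplasmic reticulum. PRDX5 is also found in peroxisomes and cytosol.

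Cardiac RNA of 10 mice aged 6 weeks was sequenced, from 5 controls (Rosa26-rtTA2+/-;TRE-SOD2-shRNA-/-) and 5 iSOD2 mice (Rosa26-rtTA2+/-;TRE-SOD2-shRNA+/-). Both genotypes carried the doxycycline-dependent transactivator under the Rosa26 promoter, which is active throughout the body, and both were exposed to doxycycline in the womb. Only iSOD2 mice also carried a hairpin RNA against Sod2, at Col1a1, and their knockdown was neither limited to cardiomyocytes nor maintained after birth, when the drug was withdrawn. Controls were 3 males and 2 females and iSOD2 mice 2 males and 3 females, with 2 mice of litter A and 3 of litter B in each genotype. The comparison asked whether the system differs in adult hearts that had gone through a loss of SOD2, which removes superoxide in the mitochondrial matrix, before birth.

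Superoxide dismutases turn superoxide into hydrogen peroxide, and peroxiredoxins remove that peroxide with a reactive cysteine. In PRDX1, PRDX2, PRDX3 and PRDX5 the oxidized cysteine is reduced again by thioredoxin, and thioredoxin by thioredoxin reductase at the expense of NADPH. PRDX6 mainly uses glutathione instead. Cytosol and mitochondria each have a thioredoxin and a reductase of their own, and cardiac mitochondria are a rich source of peroxide. The catalytic sites of the members are shown here because they are what the parallel cytosolic and mitochondrial genes have in common. They were read from GENCODE M21 transcripts (GRCm38/mm10), 5′ to 3′ on the coding strand. In the thioredoxins, capitals mark the tryptophan codon and the cysteine, glycine, proline and cysteine codons of the active site.
Txn1: gctacgTGGTGTGGACCTTGCaaaatg
Txn2: gcacagTGGTGTGGCCCCTGCaagatc
The Txn1 stretch lies on the minus strand at chr4:57951815-57951841 within 1 coding exon, with its capitals beginning at codon 31. The Txn2 stretch, also on the minus strand, is divided between 2 coding exons of chr15:77924645-77927696, with its capitals beginning at codon 89. In the reductases, capitals mark the in-frame TGA codon that is read as selenocysteine, the residue before last of the protein.
Txnrd1: gacatcctccagtctggctgcTGAggt
Txnrd2: gagcctactgtgactggttgcTGAggc
These lie on the plus strand at chr10:82896016-82896042 (codon 498) and chr16:18477751-18477777 (codon 526). The coding sequences were 61.1% identical between Txn1 and Txn2 over 311 aligned bases and 61.8% between Txnrd1 and Txnrd2 over 1469. Among the peroxiredoxins, Prdx1 shared 69.9% of aligned bases with Prdx2 and 69.7% with Prdx3, against 56.0% with Prdx5 and 54.7% with Prdx6.

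Each library held between 16448090 and 24263086 counts over genes, with a median of 20888300. Sod2 itself was 10573 ± 588 normalized counts in controls against 10781 ± 449 in iSOD2 hearts (SD with n = 5 per genotype; log2 fold change 0.03 ± 0.05 SE, adjusted p = 0.806 by DESeq2), as measured weeks after the knockdown had ended. It checks no label, because no transcript of the hairpin was analysed here. Ventricular cardiomyocyte markers, 6 of 6 detected, summed to between 1339750 and 1658230 normalized counts in the 10 hearts. Hepatocyte markers, 8 of 8 detected and none at 0, summed to between 220 and 9596 in controls and between 4709 and 19768 in iSOD2 hearts, higher in iSOD2 by 1.87 on the log2 scale (two-sided exact permutation test, p = 0.0714). Erythroid markers, 9 of 9 detected and none at 0, summed to between 78041 and 153429 in controls and between 73612 and 109139 in iSOD2 hearts, lower by 0.33 (log2 difference −0.33, exact p = 0.214). Atrial cardiomyocyte markers, 4 of 4 detected, ranged from 517 to 2123 in controls and from 634 to 7655 in iSOD2 hearts (log2 difference 1.11, exact p = 0.143), with the highest sum in iSOD2 8. The part that these cell types play in the results on the members was not tested. The RNA was from bulk tissue, so fewer cells of a type and less RNA per cell cannot be told apart.

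Normalized counts divided by exon length in kilobases allowed the members to be ranked against each other. Prdx5, whose product reduces peroxide, organic peroxides and peroxynitrite, led with 5438 ± 316 normalized counts per kilobase (SD, n = 10), rank 176 of 17728 genes. Prdx2, the main peroxiredoxin of red cells, followed with 2998 ± 161, then mitochondrial Prdx3 with 2272 ± 162, Prdx1 with 2067 ± 245 and Txn2 with 2002 ± 113. Prdx6 reached 1111 ± 77.6 and Txn1 610 ± 61.9. The value of Prdx6 rests on its deposited exon length of 2481 bp, whereas the GENCODE transcript matched to it had 959 bases. Its place in the order and the peroxiredoxin shares below depend on that length. The first place of Prdx5 likewise rests on its deposited length of 680 bp, whereas its matched GENCODE transcript had 1262 bases. Levels at other lengths were not calculated. The lowest were Txnrd1 with 319 ± 25.6, Prdx4 with 266 ± 30.7 and Txnrd2 with 245 ± 17.1, the last still above 76.1% of genes. The span from Txnrd2 to Prdx5 was thus 22.2-fold.

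**Figure D1:**
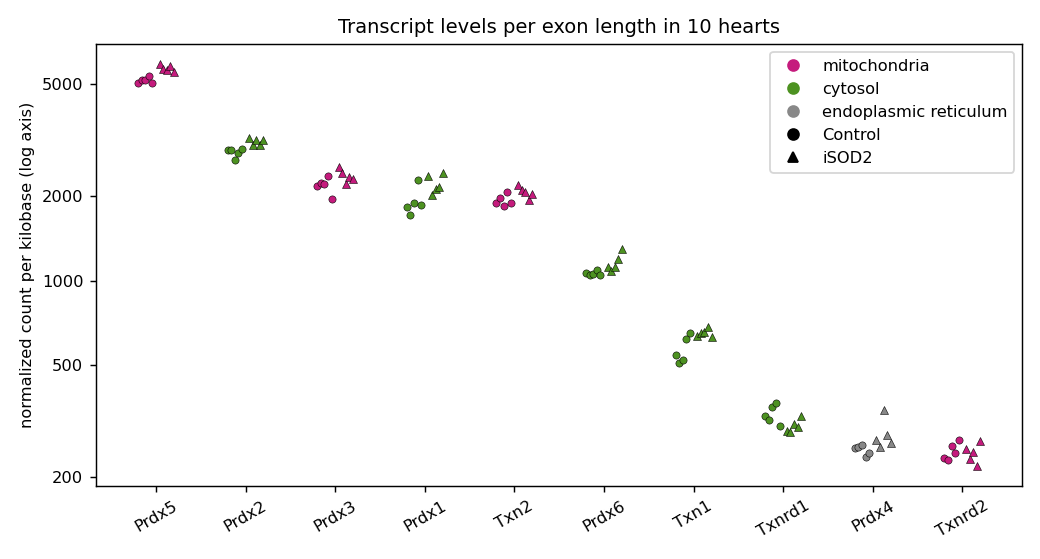
Normalized count per kilobase of exon (y axis, log scale) of each member (x axis, in order of the mean), with 1 point per heart, circles for the 5 controls and triangles for the 5 iSOD2 hearts, coloured by compartment. Prdx5, at 5043 to 5908, stands above all other members in every heart, and the 3 lowest members, Txnrd1, Prdx4 and Txnrd2, overlap with their neighbours.

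The order was clear at 5 of its 9 steps, where the lowest heart of a member lay above the highest heart of the next: below Prdx5, Prdx2, Txn2, Prdx6 and Txn1. It was not at the others. Prdx3 exceeded Prdx1 in 9 of 10 hearts, Prdx1 exceeded Txn2 in 6, Txnrd1 exceeded Prdx4 in 9 and Prdx4 exceeded Txnrd2 in 7. In each family the mitochondrial share of these levels can be read directly. Prdx3 and Prdx5 made up 54.7% ± 0.887 of the level of all 6 peroxiredoxins in controls, and Txn2 77.3% ± 1.89 of both thioredoxins. Txnrd2 supplied the smaller share of its family, 42.4% ± 2.71 (SD, n = 5 each). At the deposited exon lengths, the reductase was thus the family in which the cytosolic transcript was the more abundant one. The peroxiredoxin share was not calculated at the 959 bases of the GENCODE transcript matched to Prdx6, so its side of this contrast is uncertain.

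No member passed the study's rule for a differentially expressed gene, an adjusted p of at most 0.05 with an absolute log2 fold change above 0.25, a rule that 2.96% of tested genes passed (281 of 9479). The 6 peroxiredoxins and both thioredoxins had positive fold changes, 0.10 to 0.22 on the log2 scale. Both reductases had negative ones, −0.14 ± 0.07 SE for Txnrd1 and −0.02 ± 0.08 SE for Txnrd2. Confidence intervals of Prdx3, Prdx4, Txn2 and Txnrd2 spanned both signs, and Txnrd2 changed sign when some single hearts were left out. A split of signs by role would therefore rest on Txnrd1 alone, whose adjusted p was 0.215 by DESeq2. Prdx2 and Prdx5 had an adjusted p of at most 0.05 with a fold below the threshold. On the adjusted p alone, whatever the fold, 6.09% of tested genes passed, or 3.04% higher in iSOD2. Of the 10 members, 6 had an unadjusted p under 0.05, against 13.2% of genes fitted. These results depended on the tool. With edgeR's quasi-likelihood test no gene of the table was called, 7 members had an unadjusted p under 0.05 (15.3% of genes), and the lowest adjusted p of a member was 0.127, for Prdx5. The members' median log2 fold change was 0.13, against −0.01 over the genes tested, of which 47.3% were higher in iSOD2.

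**Figure D2:**
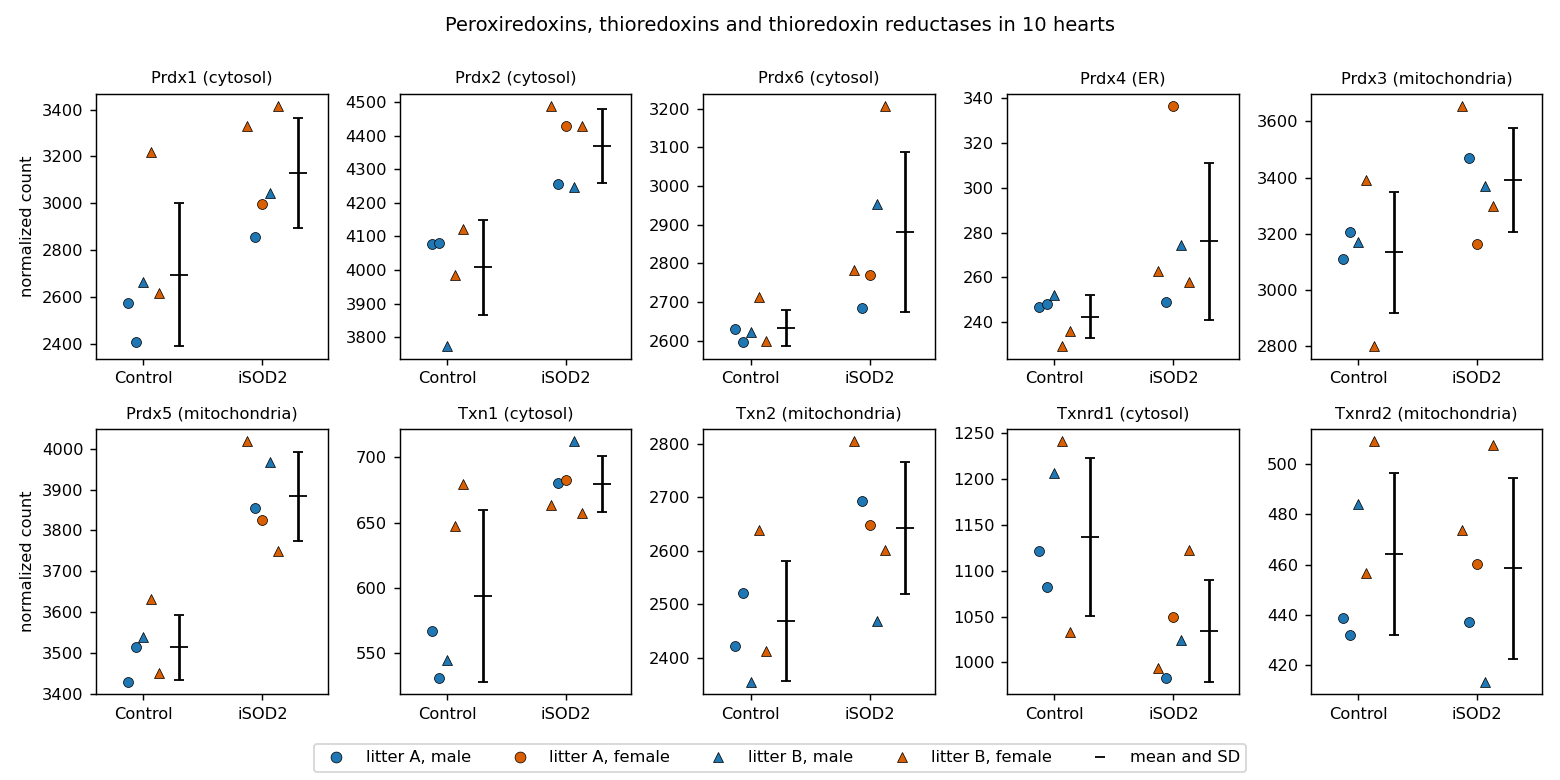
Normalized count (y axis, each panel with its own range, not starting at 0) of each member in the 5 control and 5 iSOD2 hearts, with 1 point per heart, shape for litter, colour for sex, and the mean with its SD beside the points. The genotypes are separate for Prdx2 and Prdx5 and overlap for the other 8 members.

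At the deposited exon lengths, the cytosolic 2-Cys peroxiredoxins were the most abundant cytosolic members. Prdx1 (NM_011034, chr4:116685599-116700000, plus strand), a target of the transcription factor NRF2, had normalized counts of 2572.5, 2406, 2664, 3217 and 2617 in controls 1, 2, 3, 4 and 6. In iSOD2 hearts 5, 7, 8, 9 and 10 they were 3331, 2855, 2997, 3045 and 3415. Each iSOD2 heart was above the other 4 controls, but control 4, a female of litter B, was above 3 of the 5 iSOD2 hearts. The difference in means was 16.1% (log2 fold change 0.22 ± 0.08 SE, adjusted p = 0.0879 by DESeq2). Without control 4 the log2 fold change was 0.29 with an adjusted p of 0.000912, and Prdx1 was then called. With litter as a covariate the adjusted p was 0.0220, and with sex and litter 0.0432, at a log2 fold change of 0.22 and 0.19. With sex alone as a covariate it was 0.116, at a log2 fold change of 0.18.

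Prdx2 (NM_001317385, chr8:84969622-84974662, plus strand) had normalized counts of 4076, 4081, 3772, 3986 and 4121 in controls, and 4488, 4257, 4428, 4248 and 4430 in iSOD2 hearts. The genotypes did not overlap, which held for 2 of the 10 members and for 3.77% of genes fitted (5.73% of the genes with an adjusted p), or 2.1% higher in iSOD2. The difference was small, 9.05% (log2 fold change 0.12 ± 0.04 SE, adjusted p = 0.0329 by DESeq2), and its call on the adjusted p held in 3 of the 10 fits that each left out 1 heart, with adjusted p from 0.0409 to 0.171. It did not hold without control 1, 2, 3 or 4, or without iSOD2 5, 8 or 10. Erythroid markers, whose cells carry much PRDX2, had lower sums in iSOD2 hearts, as given above, and were highest in controls 3 and 6. Prdx2 shares 173 exon bases with Junb and 141 with Rnaseh2a, both on the opposite strand, and the counting used no stated strand option. Junb was 249 ± 29.6 and 237 ± 68.0 normalized counts in controls and iSOD2 hearts, and Rnaseh2a 186 ± 7.93 and 213 ± 12.1 (SD, n = 5 each). Rnaseh2a ranged from 176 to 195 in controls and from 199 to 226 in iSOD2 hearts (log2 fold change 0.19, adjusted p = 0.223 by DESeq2). The log2 fold change of Junb was −0.07. The part of opposite-strand reads in the value of Prdx2 was not tested.

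Prdx6 (NM_001303408, chr1:161240112-161251210, minus strand), the 1-Cys peroxiredoxin that also acts as a phospholipase, was nearly constant in controls, at 2631, 2597, 2624, 2714 and 2598. In iSOD2 hearts it was 2784, 2685, 2771, 2954 and 3207. All 5 iSOD2 hearts were above 4 of the controls, and iSOD2 7 was below control 4. The difference of 9.39% did not pass (log2 fold change 0.13 ± 0.05 SE, adjusted p = 0.137 by DESeq2). Its near-copy Prdx6b had 1 to 8 raw counts per library, and 0.769% of the 50-base windows of Prdx6 were also found in it.

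Prdx4 (NM_016764, chrX:155323918-155338460, minus strand) acts in the endoplasmic reticulum, where it passes oxidizing equivalents to protein folding. It was the scarcest peroxiredoxin, with 246.9, 248.3, 252.03, 229.1 and 236.3 normalized counts in controls and 263, 249, 336, 274 and 258 in iSOD2 hearts. The spread in iSOD2 was set by heart 8, and iSOD2 7 lay within the control range. The log2 fold change was 0.19 ± 0.10 SE (adjusted p = 0.270 by DESeq2), not beyond the spread between hearts, and without iSOD2 8 it was 0.11 (adjusted p = 0.585).

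Of the mitochondrial peroxiredoxins, Prdx3, the 2-Cys enzyme confined to the matrix, was not separated by genotype. Prdx3 (NM_007452, chr19:60864066-60874538, minus strand) ranged from 2800 to 3390 normalized counts in controls and from 3164 to 3654 in iSOD2 hearts (log2 fold change 0.11 ± 0.06 SE, adjusted p = 0.274 by DESeq2). Prdx5 (NM_012021, chr19:6906819-6909645, minus strand) had counts of 3429, 3514, 3539, 3633 and 3452 in controls, and 4018, 3854, 3825, 3968 and 3750 in iSOD2 hearts. The lowest iSOD2 heart was above the highest control. The mean was 10.5% higher (log2 fold change 0.14 ± 0.04 SE, adjusted p = 0.00622 by DESeq2), and the adjusted p stayed between 0.00385 and 0.0428 when any 1 heart was left out. The log2 fold change was 0.15 in litter A, 0.14 in litter B, 0.16 in males and 0.12 in females. Prdx5 was the member with the smallest adjusted p, and it also had the shortest deposited exon length.

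Thioredoxins hand electrons from the reductases to the peroxiredoxins and to other proteins. Txn1 (NM_011660, chr4:57943373-57956411, minus strand) had normalized counts of 567, 531, 544, 647 and 679 in controls and 664, 681, 683, 712 and 657 in iSOD2 hearts. The 3 male controls and female control 4 were below every iSOD2 heart, whereas female control 6 was above 2 of them. The log2 fold change was 0.19 ± 0.08 SE (adjusted p = 0.121 by DESeq2). Without control 6 it was 0.25, with an adjusted p of 0.0326, and remained just under the fold threshold. Mitochondrial Txn2 (NM_019913, chr15:77915051-77928994, minus strand) ranged from 2355 to 2639 in controls and from 2469 to 2804 in iSOD2 hearts (log2 fold change 0.10 ± 0.05 SE, adjusted p = 0.258 by DESeq2), and the ranges overlapped.

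The reductases, selenoproteins that use NADPH, were the members with negative fold changes. Txnrd1 (NM_001042513, chr10:82859206-82897724, plus strand) had 1122, 1083, 1206, 1241 and 1034 normalized counts in controls and 993, 983, 1050, 1024 and 1122 in iSOD2 hearts. All 5 iSOD2 hearts were below the control mean of 1137 ± 85.9, but the ranges overlapped through control 6 and iSOD2 10. The log2 fold change was −0.14 ± 0.07 SE (adjusted p = 0.215 by DESeq2), while its substrate Txn1 had a positive value. Txnrd2 (NM_013711, chr16:18426417-18479073, plus strand) ranged from 432 to 509 in controls and from 413 to 508 in iSOD2 hearts (log2 fold change −0.02 ± 0.08 SE, adjusted p = 0.938 by DESeq2). Its 95% interval of −0.17 to 0.14 bounds the difference. Txnrd3, the third mammalian reductase, had 403 ± 16.8 and 407 ± 19.6.

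Exon length bears on these values. Across genes, the ratio of iSOD2 to control libraries varied smoothly with exon length, and the trend fitted over all genes at each member's length was 0.15 (log2) for Prdx5, which at 680 bp is the shortest member, 0.12 for Prdx4, 0.11 for Txn1, 0.09 for Txn2, 0.08 for Prdx1, Prdx2 and Prdx3, 0.05 for Txnrd2, 0.01 for Prdx6 and −0.02 for Txnrd1, the longest at 3400 bp. The median length of genes fitted was 2645.5 bp. With this trend removed, the log2 fold change of Prdx5 became −0.01 ± 0.04 SE (adjusted p = 0.982 by DESeq2) and that of Prdx2 0.04 ± 0.04 SE (adjusted p = 0.721). Prdx1 was left with 0.13, Prdx6 with 0.12, Txn1 with 0.08, Prdx4 with 0.07, Prdx3 with 0.03 and Txn2 with 0.01. Txnrd1 kept −0.11 and Txnrd2 stood at −0.06. The median over members was then 0.04, with 7 higher and 3 lower, and 1 had an unadjusted p under 0.05, Prdx6 (adjusted p = 0.325 by DESeq2). Prdx6 was corrected at its deposited length of 2481 bp, although the GENCODE transcript matched to it had 959 bases. Prdx4, at 974 bp, had a trend of 0.12. The deposited and GENCODE lengths also differed for Prdx5 (680 bp against 1262 bases), Txnrd1 (3400 against 2297), Prdx1 (1409 against 2294) and Prdx2 (1397 against 1612). The value of −0.01 for Prdx5 therefore holds for its deposited length. Corrections at the GENCODE lengths were not tested. No member was called, against 1.35% of genes. What gives rise to the length trend was not tested.

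**Figure D3:**
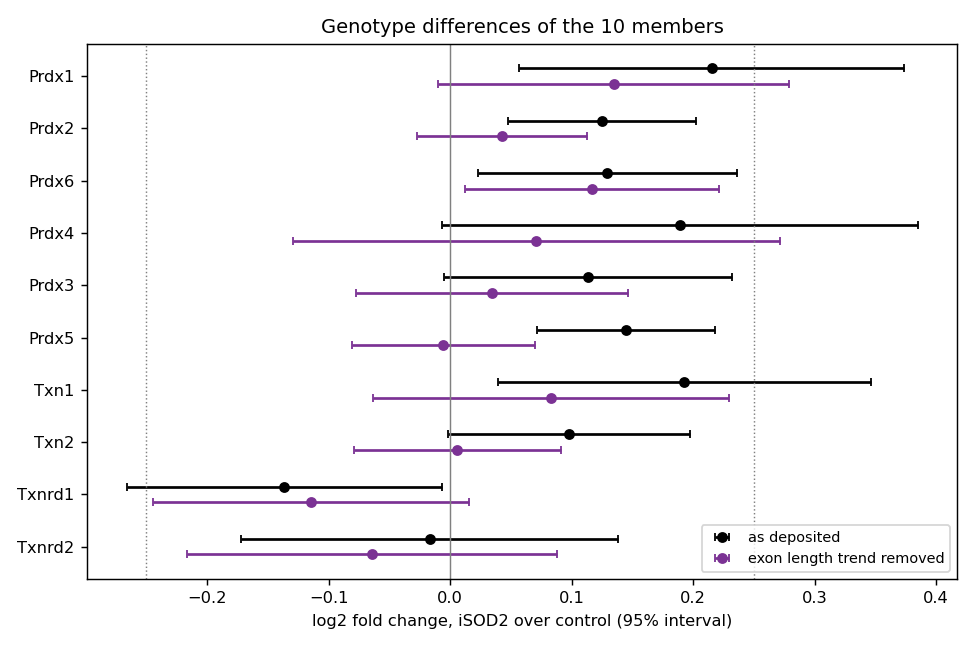
Log2 fold change of iSOD2 over control (x axis) for each member, with 95% intervals, from the counts as deposited (black) and with the exon length trend removed (purple); dotted lines mark the fold threshold of 0.25 on either side. Prdx5 goes from 0.14 to −0.01 and Prdx2 from 0.12 to 0.04, whereas Prdx6 and Txnrd1 move by little.

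Cytosolic and mitochondrial members were then compared within each heart, where a shift in one compartment alone would change their ratio. Before that, the median log2 fold change was 0.11 over the 4 mitochondrial members (3 higher) and 0.13 over the 5 cytosolic ones (4 higher). The mean log2 level of the mitochondrial members exceeded that of the cytosolic members by 0.06 ± 0.05 (SD, n = 5) in controls and by 0.04 ± 0.07 (SD, n = 5) in iSOD2 hearts. The difference of −0.02 was smaller than either spread, but neither its size nor its sign was stable. It was −0.0621 with the length trend removed, which is above the control SD, −0.0482 in males and 0.0168 in females, and between −0.0418 and −0.00659 without any 1 heart, being nearest to 0 without control 2 or iSOD2 10. With the length trend removed, the medians were 6.75e-05 and 0.08, with 2 of 4 and 4 of 5 higher.

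For the pair of 2-Cys peroxiredoxins, the log2 ratio of Prdx3 to Prdx1 was 0.27, 0.41, 0.25, 0.08 and 0.10 in controls and 0.13, 0.28, 0.08, 0.15 and −0.05 in iSOD2 hearts. The genotypes overlapped, with means of 0.22 ± 0.14 and 0.12 ± 0.12 (difference −0.10, two-sided exact permutation test, p = 0.270). The ratio of Txn2 to Txn1 was 2.10, 2.25, 2.11, 2.03 and 1.83 in controls and 2.08, 1.98, 1.95, 1.79 and 1.98 in iSOD2 hearts (difference −0.10, exact p = 0.238). That of Txnrd2 to Txnrd1 was −1.29 ± 0.16 and −1.18 ± 0.09 (difference 0.12, exact p = 0.183), the opposite sign. All 3 tests had a Benjamini-Hochberg adjusted p of 0.270. Permuting within litters gave exact p of 0.200, 0.233 and 0.167, and within sexes 0.160, 0.25 and 0.160. The Prdx3 to Prdx1 difference lay between −0.145 and −0.0565 without any 1 heart, the latter without control 2. Control 6 decided the thioredoxin and reductase pairs: without it the differences were −0.16 (exact p = 0.0397) and 0.18 (exact p = 0.0159). These p were not adjusted over the pairs or the hearts left out.

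**Figure D4:**
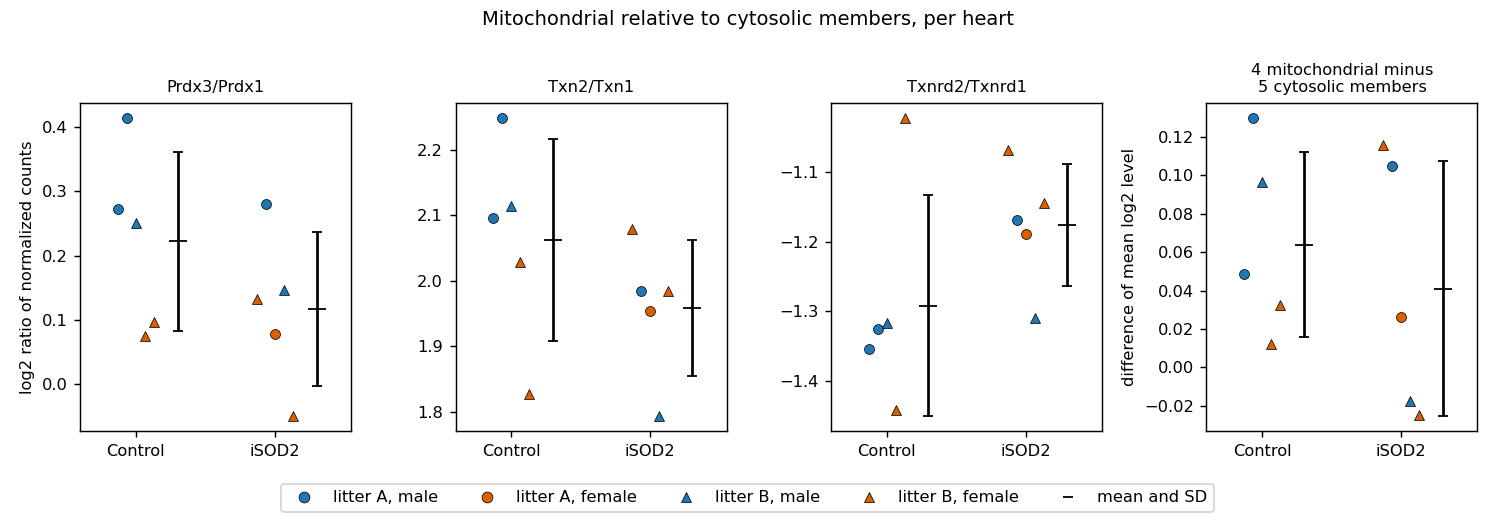
Log2 ratio of normalized counts (y axis of the 3 panels on the left) of mitochondrial to cytosolic partners, and the mean log2 level of the 4 mitochondrial minus the 5 cytosolic members (right panel), with 1 point per heart, shape for litter, colour for sex, and the mean with its SD. The genotypes overlap in every panel; control 6 is the lowest control for Txn2/Txn1 and the highest for Txnrd2/Txnrd1.

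Measured per kilobase, the mitochondrial share of each family in iSOD2 hearts was 54.3% ± 1.40 of the peroxiredoxins, 76.0% ± 1.32 of the thioredoxins and 44.4% ± 1.49 of the reductases (SD, n = 5 each). These lay within 1 control SD of the control shares given above. For the reductases the shift was nevertheless larger than the iSOD2 SD of 1.49.

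Sex and litter were examined with genotype as a covariate. No member was called between females and males, where 0.483% of genes were, and 1 had an unadjusted p under 0.05 (6.6% of genes), Prdx1 at 0.17 ± 0.07 SE higher in females (adjusted p = 0.467 by DESeq2). X-linked Prdx4 differed by 0.02 ± 0.11 SE. Between litters, where 3.5% of genes were called, no member was, and Prdx1 was the 1 member with an unadjusted p under 0.05, as had 13% of genes (0.17 ± 0.07 SE higher in litter B, adjusted p = 0.138 by DESeq2). The genotype difference of Txn1 was 0.35 in males and 0.01 in females, an interaction of −0.34 ± 0.14 SE, with an unadjusted p under 0.05 as in 1.18% of genes. It did not survive adjustment over all genes (adjusted p = 0.99995 by DESeq2), and 0% of genes in the table did. For genotype by litter no member had an unadjusted p under 0.05, against 1.79% of genes, and 0.00564% of genes were called.

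The antioxidant response element, to which NRF2 binds and which is known from the promoters of Prdx1 and Txnrd1, was looked for in the promoters of the members as the letters TGACNNNGC on either strand. Windows of 250 bases before to 50 after each start were taken from RefSeq (GRCm38.p6), which gave 11 windows for 9 of the 10 members; Prdx6 had none. The letters occurred in 2 of the 11 windows, and in 12.4% of all 32851 promoter windows. The matches are printed with 9 or 10 bases on either side, on the strand of the gene, with the element in capitals in the reverse orientation.
Prdx1: agggaaagcGCTGAGTCAtcccccgtag
Txnrd1: tggatttttGCTTTGTCAttctgacacg
They lie at chr4:116685457-116685484 and chr10:82859105-82859132, with the element beginning 133 and 92 bases before the start site; for Txnrd1 this is the start of the deposited transcript, 1 of 3 starts in the table. The FOXO letters GTAAACA, present in 3.65% of windows, were found in 0 of the 11. The members with a match thus had log2 fold changes of opposite sign, 0.22 for Prdx1 and −0.14 for Txnrd1. A match of letters is a description and not a binding site.

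A further 50 genes around the system were listed by role, and all were measured. Of these, 1 was called, 3 had an adjusted p of at most 0.05 and 10 an unadjusted p under 0.05 (2.96%, 6.09% and 13.2% of genes in the table), with 29 higher, 21 lower and a median log2 fold change of 0.02. The called gene was Txndc17, a small thioredoxin-like protein of the cytosol. It rose from 322 ± 8.42 normalized counts in controls, with a range of 316 to 336, to 392 ± 27.1 in iSOD2 hearts, with a range of 369 to 431.5 (log2 fold change 0.29 ± 0.08 SE, adjusted p = 0.00843 by DESeq2). With the length trend removed its log2 fold change was 0.21, below the threshold. Among the 11 partners and regulators, Txnip, the inhibitor of thioredoxin, varied widely between hearts, at 11320 ± 4053 and 12005 ± 4569 (log2 fold change 0.08, adjusted p = 0.919). The sestrins Sesn2 and Sesn3, and Srxn1, which repairs overoxidized peroxiredoxins, had log2 fold changes of −0.27, −0.26 and −0.11, and none passed.

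Among 7 reductases that draw on thioredoxin, none was called. The methionine sulfoxide reductases Msra, Msrb2 and Msrb3 stood at 0.22, 0.12 and −0.17, with adjusted p of 0.0842, 0.337 and 0.0790. Of 5 genes of the glutaredoxin system, Glrx5, a mitochondrial glutaredoxin needed for iron-sulfur clusters, had an adjusted p of 0.0288 with a fold below the threshold (log2 fold change 0.18, 709 ± 27.3 against 805 ± 28.6 normalized counts). With the length trend removed it was 0.07. The next in size, Glrx2 and Glrx, stood at −0.09 and 0.06. Of 10 genes that supply NADPH, none was called, and 7 were higher. Idh2, the NADP-dependent isocitrate dehydrogenase of mitochondria, was the most changed at 0.20 (23981 ± 1279 against 27553 ± 2620, adjusted p = 0.0553), followed by G6pdx at −0.13 and Idh1 at 0.10.

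Of 5 genes for selenoprotein synthesis, on which the reductases depend, none was called, and Sephs2, Pstk and Eefsec had log2 fold changes of 0.23, 0.21 and −0.17, with adjusted p of 0.107, 0.0942 and 0.320. Of 12 genes for thioredoxin-fold proteins of the endoplasmic reticulum and for the oxidases Ero1a and Ero1b, none was called. Pdia3, a disulfide isomerase of glycoprotein folding, had a log2 fold change of −0.21 (1859 ± 42.3 against 1605 ± 82.6, adjusted p = 0.00171 by DESeq2), which was −0.22 with the length trend removed. The genotypes did not overlap for 4 of the 50 further genes, Pdia3 among them, against 3.77% of genes fitted. Next in size among the 12, Tmx4 and Ero1b were both at −0.07.

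**Figure D5:**
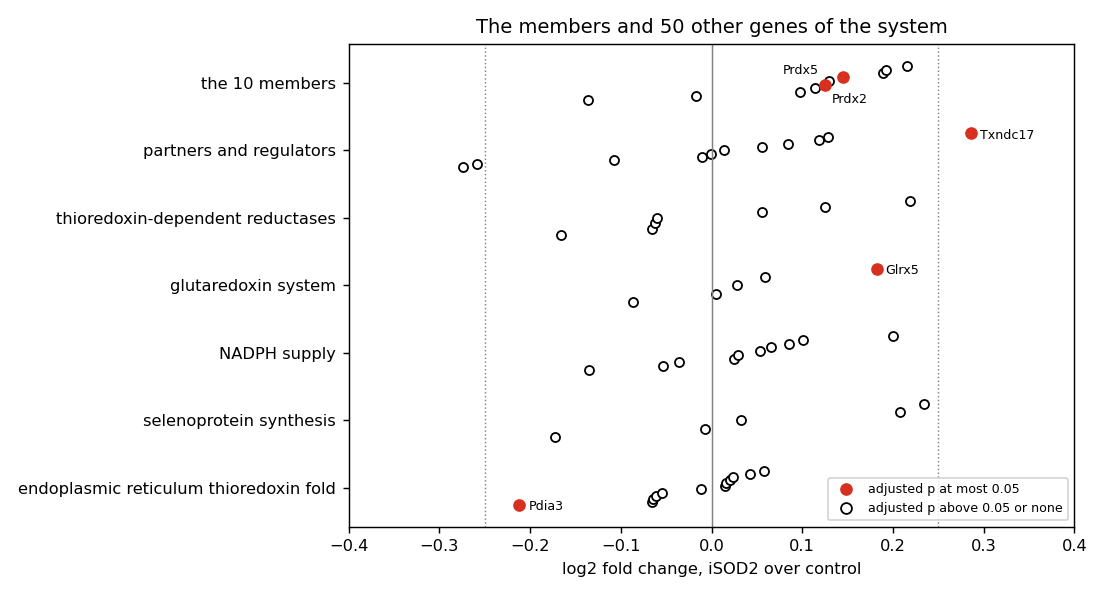
Log2 fold change of iSOD2 over control (x axis) for the 10 members and for 50 other genes in 6 groups by role, with 1 point per gene; red points have an adjusted p of at most 0.05 and dotted lines mark 0.25 on either side. Txndc17 is the only red point beyond a dotted line, and Prdx2, Prdx5, Glrx5 and Pdia3 lie inside.

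For each member, the gene outside the list whose log2 level followed it most closely over the 10 hearts was found among 12139 genes that averaged 50 normalized counts or more. These correlations are descriptions: they are the highest of many, and the hearts share genotype and library depth. Pearson's r was 0.98 for Prdx2 with H2-T22, 0.97 for Prdx1 with Chmp4b and Txn1 with Commd7, and 0.96 for Prdx3 with Cfl2, Prdx5 with Cox6b1 and Txn2 with Emc4. It was 0.93 for Prdx6 with Rps13 and Txnrd2 with Rangap1, 0.91 for Prdx4 with Pgk1 and 0.90 for Txnrd1 with Nbn. Spearman's rho was 0.73 for Prdx4 and 0.87 to 0.98 for the other 9. Without the 2 hearts farthest from the median, r fell to 0.59 for Prdx4 and to 0.70 for Txnrd1, which rest on those hearts, and stayed at 0.82 or above for the rest. Cox6b1 and Rps13, at 499 and 574 bp, are shorter than any member.

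Some reads of the members can also match other genes. Of 50-base windows along the transcripts, 24.9% of Prdx2 and 17.8% of Prdx1 were also found in another annotated gene, processed pseudogenes among them (Tdpx-ps1 for Prdx2, Gm21399 and Gm7204 for Prdx1). The share was 2.50% for Txn1, in Txn-ps1, and 0 for Prdx3, Prdx4, Prdx5, Txn2 and Txnrd1. The levels of Prdx1 and Prdx2 are therefore the least certain. Prdx1 also overlaps the interval of AV051173 on the opposite strand (40.4 ± 3.72 and 39.6 ± 4.01 normalized counts), and Txnrd1 that of Eid3 on its own strand (38.6 ± 8.46 and 35.4 ± 10.9).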

How the data were processed

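Total RNA depleted of ribosomal RNA was made into TruSeq Stranded libraries from 10 hearts, 1 library per mouse. Adapter trimming (Trim Galore), alignment to mm10 (STAR) and counting over the exons of 1 transcript per gene (HOMER) were done by the authors. Their table was deposited in expected or estimated counts, which go in steps of 0.5 and are not normalized, and HOMER's command, as kept in the deposited table, held no strand option. The deposited table also gives another unit, the exon length in base pairs of the transcript kept, used here for levels per kilobase and for the length trend. The genome build was mm10, and coordinates count from 1.

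For the models, counts were made whole by rounding, and the 17728 genes with at least 10 counts in all entered. The genotype comparison used DESeq2 1.42.0 (R 4.3.3; Wald test, default size factors, no covariate) over all of them; Benjamini-Hochberg adjusted p was given to 9479 genes after independent filtering. A gene was called at an adjusted p of at most 0.05 and an absolute log2 fold change above 0.25, the study's rule. Sex, litter and their interactions with genotype were fitted likewise. Normalized counts are unrounded counts over size factors. Ratios of members were tested by exact permutation, two-sided, whose smallest possible p is 0.00794. Per-library length trends were loess fits (span 0.5) of log2 deviations over genes averaging 50 normalized counts or more. Models were checked on simulated counts.

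Alternatives were edgeR 4.0.16, TMM scaling, other filters, covariates, each sex or litter alone, removal of length and GC trends, and leaving out each heart. Replicate numbers are those of the labels and no number occurs in both genotypes. Labels give 1 number per mouse. With these depths the spread between mice sets the precision. Transcripts of the hairpin were not analysed here. A result on reads shared between genes is not reported here.

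The 10 members, the 50 further genes and the marker lists were chosen with earlier results of these data known. Genes named are the members, Sod2, of each group of further genes those called and the 3 with the largest absolute log2 fold change at an average of 50 normalized counts or more, paralogues and genes overlapping a member, and the gene most correlated with each member. Txnip and Srxn1 were added for their role, after their values were seen.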

Additional observations from a re-analysis of the deposited data

Results flagged for a closer look

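Prdx4 in iSOD2 8, a female of litter A, had 336 normalized counts, against 249 to 274 in the other 4 iSOD2 hearts. Its gap to the nearest heart was 0.711 of the range of the group, just above Dixon's 95% critical value of 0.71 for 5 samples. It was the 1 value so marked in 28 groups of 5 hearts, where chance alone would mark 1.4. Atrial cardiomyocyte markers also had their highest sum in this heart, 7655 normalized counts; their part in the value of Prdx4 was not tested.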

How the results depend on the processing

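The count of 0 members called held in all alternatives except without control 4 (1, Prdx1) and with the adjusted p alone (2, Prdx2 and Prdx5), so that leaving out 1 heart gave 0 to 1. The 1 called gene among the 50 further genes became 0 with edgeR, in females, males, litter A or litter B alone, with sex and litter as covariates, and with the length trend or length and GC trends removed, and 3 with the adjusted p alone. Leaving out 1 heart gave 0 to 4: 0 without control 3 or iSOD2 5, 4 without control 4, and 2 without iSOD2 7. Fits to 1 sex or litter rest on fewer hearts; the cause of the other changes was not tested. The genotype difference in the log2 ratio of Txn2 to Txn1 changed sign in females alone (0.0778, exact p = 0.50). Without control 6 its exact p, not adjusted, fell below 0.05 (−0.16, exact p = 0.0397), as did that of Txnrd2 to Txnrd1 (0.18, exact p = 0.0159). Leaving out 1 heart gave −0.145 to −0.0565 for Prdx3 to Prdx1, −0.16 to −0.0572 for the thioredoxins and 0.0789 to 0.18 for the reductases. For single members, Prdx5 turned to −0.0056 with the length trend removed, and Txnrd2 to 0.0453 in litter A alone, 0.0194 without control 6 and 0.0178 without iSOD2 9, its range without 1 heart being −0.0556 to 0.0194. The adjusted p of Prdx2 rose above 0.05 in 16 of 23 alternatives and that of Prdx5 in 7, edgeR and each sex or litter alone among them. Counts of 0 members called for sex, litter and both interactions held in all 12 alternatives of each. The order of levels per kilobase was the same under CPM, but CPM only rescales each library and cannot change the order within a heart. Other exon lengths, which could change it, were not tried. The difference between compartments, −0.023, moved by less than its spread in 17 alternatives but was 0.0168 in females alone, −0.0482 in males alone and −0.0621 with the length trend removed, and −0.0418 to −0.00659 without 1 heart. No paired analysis was possible because the genotypes share no replicate number; litters, which both genotypes share, entered as a covariate and as strata of the permutations. Differences below the 95% intervals given could not be seen with 5 hearts per genotype.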
